A study of Homo sapiens with 208 samples.

Results

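The expression of 10 cytokine genes was followed in human lung cancer cells treated with an EGFR kinase inhibitor. They were the colony-stimulating factors CSF2, CSF1 and CSF3, the IL-6 family ligands IL6, IL11 and LIF, and the IL-1 family members IL1A, IL1B, IL18 and IL1RN. They were taken by name, through the RefSeq accession that each array probe carries. They made up 10 of the 16961 genes with a named probe, and LIF alone had 2 of their 11 probes. PC9 is a gefitinib-sensitive lung adenocarcinoma line whose EGFR carries an activating deletion. Gefitinib inhibits the EGFR kinase. PC9M2, named PC9GRM2 in the sample labels, is one of the PC9 clones that outlived long gefitinib exposure, so it stands for resistance as 1 clone shows it. It was described as free of the secondary EGFR mutation screened for, with MET protein near the level of PC9. Each line was starved for 48 h and then given no treatment, 100 ng/ml EGF, 0.5 µM gefitinib or both agents. Gefitinib was added before the 0 h harvest and EGF at 0 h, by the study's sampling scheme. Each of these 8 courses was sampled for total RNA 26 times between 0 and 24 h, and each sample was put on 1 array.

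Cytokines of these families are small secreted proteins that carry signals between tumour cells, leukocytes and stroma. GM-CSF, the product of CSF2, and M-CSF, the product of CSF1, promote the growth and survival of myeloid cells, and G-CSF, the product of CSF3, that of neutrophils. IL-6, IL-11 and LIF bind receptors of their own and then share the signalling chain gp130, which acts through STAT3. IL-1α, IL-1β and IL-18 act through related receptors that switch on NF-κB, IL-1β and IL-18 are released after cleavage by caspase-1, and the receptor antagonist made from IL1RN occupies the IL-1 receptor without signalling. Airway epithelium and the carcinomas that arise from it are known sources of several of these ligands.

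The stretches in front of the start sites are shown for CSF2, IL6, IL11, IL1B and IL1RN. With gefitinib in PC9, CSF2, IL6, IL11 and IL1B were lower and IL1RN was higher, whereas in PC9M2 IL6 and IL1B were not called. The 250 bases before a RefSeq start site (assembly GRCh38.p14) were available for 6 of the 10 members, but not for CSF1, CSF3, LIF and IL18. They are printed 5′ to 3′ in the direction of transcription, and capitals mark matches on either strand to the AP-1 letters TGANTCA, the NF-κB letters GGNNNTTCC, the CRE letters TGACGTCA or the STAT letters TTCNNNGAA.
CSF2, chr5:132073539-132073788, plus strand: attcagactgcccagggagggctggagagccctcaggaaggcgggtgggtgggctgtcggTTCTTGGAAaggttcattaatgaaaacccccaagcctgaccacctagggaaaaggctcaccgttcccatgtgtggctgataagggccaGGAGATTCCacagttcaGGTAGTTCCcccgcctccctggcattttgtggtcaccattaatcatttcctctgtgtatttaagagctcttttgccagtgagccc
IL6, chr7:22726950-22727199, plus strand: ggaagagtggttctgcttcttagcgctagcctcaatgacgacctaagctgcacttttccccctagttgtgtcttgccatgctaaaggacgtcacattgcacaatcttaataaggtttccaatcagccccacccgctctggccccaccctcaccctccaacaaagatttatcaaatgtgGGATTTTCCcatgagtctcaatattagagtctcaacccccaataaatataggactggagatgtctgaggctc
IL11, chr19:55370464-55370713, minus strand: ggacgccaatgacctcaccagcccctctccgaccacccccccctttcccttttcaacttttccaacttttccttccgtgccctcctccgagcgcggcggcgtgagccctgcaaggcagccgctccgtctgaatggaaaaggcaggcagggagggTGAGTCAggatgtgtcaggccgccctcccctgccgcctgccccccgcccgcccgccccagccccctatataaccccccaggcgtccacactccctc
IL1B, chr2:112836780-112837029, minus strand: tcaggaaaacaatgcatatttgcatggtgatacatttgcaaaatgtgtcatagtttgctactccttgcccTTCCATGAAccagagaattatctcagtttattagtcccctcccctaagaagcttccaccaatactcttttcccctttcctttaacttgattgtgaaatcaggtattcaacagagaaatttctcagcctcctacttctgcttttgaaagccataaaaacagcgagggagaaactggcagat
IL1RN, chr2:113117721-113117970, plus strand: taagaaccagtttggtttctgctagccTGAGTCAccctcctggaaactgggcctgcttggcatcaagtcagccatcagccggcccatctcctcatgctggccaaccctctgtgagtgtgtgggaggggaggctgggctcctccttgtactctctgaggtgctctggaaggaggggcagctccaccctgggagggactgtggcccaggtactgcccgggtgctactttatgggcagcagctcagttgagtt
IL1RN, chr2:113127348-113127597, plus strand: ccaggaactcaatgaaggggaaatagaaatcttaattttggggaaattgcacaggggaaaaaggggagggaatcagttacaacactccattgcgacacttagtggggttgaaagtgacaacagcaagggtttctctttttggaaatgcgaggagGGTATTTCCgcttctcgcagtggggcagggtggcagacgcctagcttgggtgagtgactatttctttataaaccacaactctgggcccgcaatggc

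CSF2 held 2 NF-κB matches, beginning 102 and 85 bases before the start site, and 1 STAT match beginning 190 bases before it. IL6 held an NF-κB match 72 bases before its start site and IL11 an AP-1 match 96 bases before its own. IL1B held a STAT match 180 bases before the start site. IL1RN has 3 listed start sites, of which the first window held an AP-1 match at 223 bases and the third an NF-κB match at 96 bases, while the second held none of these letters. In IL1A, whose signal stayed near background and whose windows are not shown, both windows held AP-1 matches. Over the windows of the same length before all 35116 listed start sites, 6.57% held the AP-1 letters, 17.1% the NF-κB letters, 1.65% the CRE letters and 6.57% the STAT letters. None of the matches in the printed windows overlap, and no printed window held the CRE letters. These matches describe the letters of the windows and were not tested against the array signals.

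Signals below are log2 values after quantile normalization, and a difference of 1 is a doubling. A probe was counted as detected on an array when the scanner software marked it well above background. For probes with several spots per array, among them those of IL6, IL1A, IL1B and IL18, the share of spots so marked decided. A gene was tested when its probe was detected on at least 13 of the 26 arrays of at least 1 course. There were 13263 such genes, 8 of the 10 cytokines among them. Differences were taken between arrays of the same time point and tested with limma, two-sided, with Benjamini-Hochberg adjustment over all 13263 genes, and an adjusted p under 0.05 was called. The time points of a course stand in for replicates here. They follow one another in 1 culture series, so the standard errors and p-values measure the spread between time points and not that between independent cultures.

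The arrays detected from 24464 to 35938 features (median 29879). Epithelial identity was checked with 8 markers, all of which were detected on at least 13 arrays of every course, while the leukocyte marker PTPRC was detected on at most 1 and CD163 on at most 2 arrays of any course. The 4 treatments of a line and time point shared a slide. However, no slide and no scan day held both lines, so line and scan period cannot be told apart. The lines also differed in saturation, with 183 to 1616 saturated non-control spots on each PC9 array and 0 on every PC9M2 array. On 1 pair of arrays the labels and the signals went against each other. At 0.5 h in PC9M2 the mean log2 signal of 10 genes that ERK signalling induces was 7.75 on the array labelled EGF and 10.48 on the array labelled EGF and gefitinib, whereas at all other times it lay between 9.84 and 10.67 with EGF and between 7.27 and 8.81 with both. The labels were kept. Without the 0.5 h time point the counts of called cytokines in the comparisons that use these arrays were unchanged, and the values that moved most, those of CSF2 and LIF, are given below. The arrays that differed most from those of the neighbouring times were untreated PC9M2 at 11 h, with an SD of 1.05 over genes against a median of 0.39 over all arrays, and PC9 with gefitinib at 16 h and 14 h, with SDs of 0.89 and 0.79.

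Detection separated the cytokines into groups. IL11 and IL18 were detected on all 26 arrays of all 8 courses. CSF1, IL6 and IL1RN were detected on at least 17 arrays of every course. IL1B was detected on all arrays except those of PC9 with gefitinib, where it was seen on 15 of 26 arrays, and PC9 with both agents, where it was seen on 14. CSF2 was detected on 14 of 26 untreated PC9 arrays and on all 26 untreated PC9M2 arrays, but with gefitinib on only 5 arrays of PC9 and 4 of PC9M2. The main LIF probe was detected on 24 untreated arrays of each line and on 9 and 12 arrays with gefitinib, while the second LIF probe was detected on all 26 arrays of every course. CSF3 and IL1A stood apart from these, being detected on 0 or 1 array per course, and were not tested. The highest CSF3 signal was 5.47, on the untreated PC9M2 array at 7 h, and the highest IL1A signal was 4.67, on the untreated PC9M2 array at 0 h. For neither gene is a fold given, since the mean of the brighter course lay below the bound set by the dimmest detected signal on each array, averaged over the dimmer course.

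**Figure D1:**
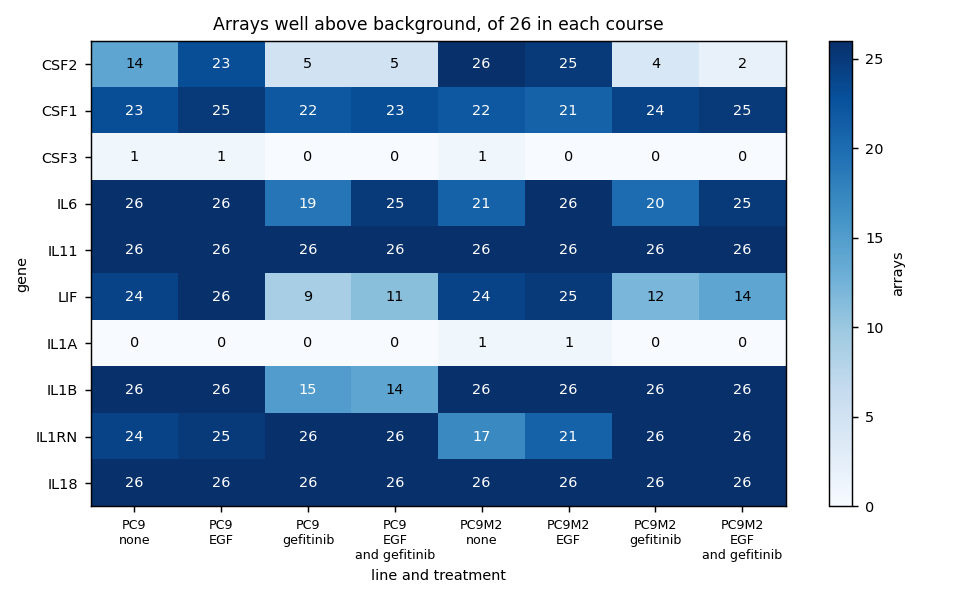
Number of arrays, of 26 in each course, on which each cytokine was well above background, with genes as rows and the line and treatment of the 8 courses as columns. CSF3 and IL1A stay at 0 or 1, IL11 and IL18 at 26, and CSF2 and LIF have fewer detected arrays in each course with gefitinib than in the matching course without it.

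The first comparison asked what inhibition of the EGFR kinase did to these genes in the sensitive line. Gefitinib lowered 7 of the 8 tested cytokines in PC9 and raised 1, IL1RN. The mean differences were lowest for CSF2 and LIF, while IL1RN rose 3.58-fold. The place of CSF2 depends on how dim signals are treated, as given below. All 8 were called, where 72.3% of all tested genes were called, so a call alone sets no cytokine apart. The median difference was -1.07 over the 8 cytokines and -0.02 over all tested genes. Since RNA of whole cultures was measured, fewer cells expressing a gene and less RNA per cell cannot be told apart.

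CSF2 signals ranged from 3.81 to 6.92 on untreated PC9 arrays, with a median of 4.96, and from 1.97 to 4.14 with gefitinib, with a median of 2.13. Gefitinib arrays were lower at all 26 time points, and the ranges overlapped because the highest gefitinib signal, at 0 h, lay above the lowest untreated one, at 17 h. The mean log2 difference was -2.58 (SE 0.11, n = 26 time points, adjusted p = 4.56e-17). The 5 PC9 arrays with gefitinib on which CSF2 was detected were those from 0 to 3 h, and CSF2 was detected on only 14 of the untreated ones, so the difference reaches into the background. Their size depends on how dim signals are treated: with all signals set to at least 16 the difference was -1.07, and with normexp background correction, which adds 50 to each signal, it was -0.22, both still called. In the first case LIF (-1.85), IL11 (-1.20) and IL1B (-1.15) and in the second IL11 (-0.98), IL18 (-0.60) and LIF (-0.28) lay below it. CSF1 moved less. Its untreated signals ran from 5.10 to 7.13 and those with gefitinib from 4.94 to 6.48, largely overlapping, with a difference of -0.49 (SE 0.10, adjusted p = 5.32e-05).

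In the IL-6 family all 3 ligands fell in PC9. LIF ranged from 5.09 to 7.45 without treatment, with a median of 5.91, and from 2.20 to 5.13 with gefitinib, with a median of 4.14. All gefitinib signals except that of 0 h lay below the lowest untreated signal, and the difference was -2.06 (SE 0.16, adjusted p = 7.77e-12). The second LIF probe, detected on every array, ranged from 12.73 to 14.31 without treatment and from 11.02 to 12.40 with gefitinib. It gave a difference of -2.005 (SE 0.09, adjusted p = 3.36e-17), so the fall of LIF was also seen far above background. IL11, a cytokine known for its part in fibrosis and epithelial repair, ranged from 8.87 to 10.98 untreated and from 8.07 to 9.65 with gefitinib, a difference of -1.20 (SE 0.10, adjusted p = 2.19e-11) that was negative at all 26 time points. IL6 ranged from 5.83 to 6.76 untreated and from 3.56 to 6.66 with gefitinib, a difference of -0.94 (SE 0.14, adjusted p = 1.33e-06). Its gefitinib signals overlapped the untreated ones in the first hours and lay below all of them from 10 h on, with the lowest value on the deviating array of 14 h.

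The IL-1 family split. IL1B ranged from 4.79 to 7.20 on untreated PC9 arrays, with a median of 5.92, and from 2.57 to 6.73 with gefitinib, with a median of 4.48. It was lower at 25 of 26 time points, with a mean difference of -1.26 (SE 0.14, adjusted p = 8.03e-09). IL1RN, which encodes the antagonist of the same receptor, ranged from 5.35 to 7.66 untreated, with a median of 6.16, and from 6.63 to 8.92 with gefitinib, with a median of 8.14. It was higher at 25 of 26 time points and lower only at 0 h, with a difference of 1.84 (SE 0.19, adjusted p = 1.23e-09). IL18, whose product needs caspase-1 to be released in active form, ranged from 10.74 to 12.01 untreated and from 10.08 to 11.87 with gefitinib, a difference of -0.66 (SE 0.09, adjusted p = 4.41e-07). With normexp correction the differences of IL6, LIF, IL1B and IL1RN shrank to -0.17, -0.28, -0.21 and 0.69 and stayed called, while those of IL11 and IL18 were -0.98 and -0.60.

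**Figure D2:**
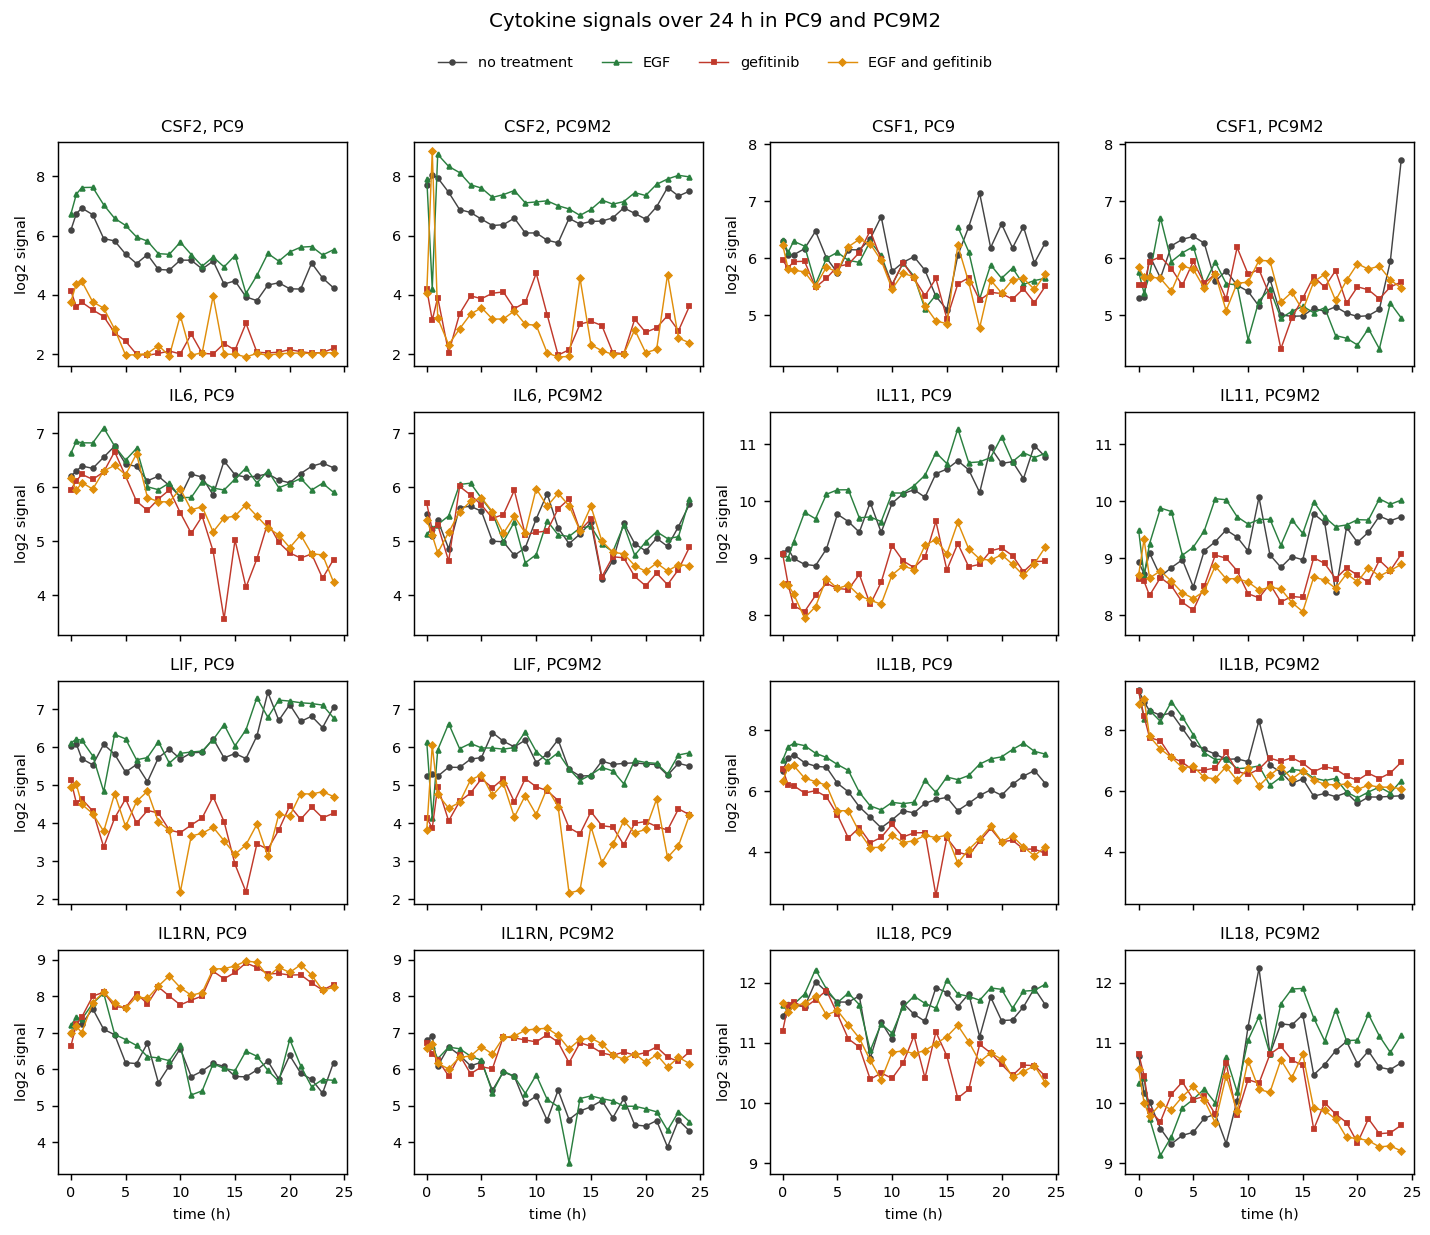
Log2 signal of the 8 tested cytokines against time in hours, 1 panel per gene and line and 1 line of points per treatment. Gefitinib courses run below the others for CSF2 and LIF in both lines and above them for IL1RN after the first hours, and in PC9M2 the CSF2 points of the 2 EGF courses change places at 0.5 h.

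The arrays that also received EGF gave a second measurement of gefitinib in PC9, on other arrays of the same slides. Again 7 cytokines were lower and 1 higher, where 78.9% of all genes were called. CSF2 ranged from 4.05 to 7.62 with EGF and from 1.91 to 4.46 with both agents, a difference of -3.22 (SE 0.12). LIF differed by -2.22, IL1B by -1.77, IL11 by -1.51, IL6 by -0.67 and IL18 by -0.68, each in the direction seen without EGF. IL1RN was 1.80 higher (SE 0.21, adjusted p = 1.62e-08). The smallest difference was that of CSF1, -0.16 (SE 0.05, adjusted p = 0.00512), which was no longer called when arrays were scaled by their 75th percentile (-0.01, adjusted p = 0.926).

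In the resistant line CSF2, LIF, IL11, IL18 and IL1RN, 5 of the 8 tested cytokines, were called, 4 lower and 1 higher, where 66.7% of all genes were called. CSF2 was lower and IL1RN 2.20-fold higher than without treatment, whereas IL6, CSF1 and IL1B gave mean differences near 0. The median difference was -0.22 over the 8 cytokines and -0.01 over all genes.

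Untreated PC9M2 arrays gave CSF2 signals from 5.75 to 8.04, with a median of 6.59, and arrays with gefitinib signals from 1.97 to 4.73, with a median of 3.24. The groups did not overlap, and the difference was -3.57 (SE 0.18, adjusted p = 1.42e-15). CSF2 was detected on only 4 of these gefitinib arrays, and the difference was -2.75 with signals set to at least 16 and -0.57 with normexp correction. Both groups of LIF were also apart, from 5.24 to 6.39 untreated and from 3.44 to 5.18 with gefitinib, a difference of -1.26 (SE 0.08, adjusted p = 2.31e-13). The second LIF probe gave -1.27 (SE 0.09). IL11 was lower at 25 of 26 time points, with a difference of -0.59 (SE 0.07, adjusted p = 3.73e-08). IL1RN ranged from 3.87 to 6.90 untreated and from 5.82 to 6.95 with gefitinib, and was 1.14 higher (SE 0.18, adjusted p = 2.09e-06). Over the first 13 time points alone it was 0.51 higher and not called (adjusted p = 0.0956). IL18 differed by -0.39 (SE 0.15, adjusted p = 0.0235), a call that was lost without the 11, 14 and 16 h time points (adjusted p = 0.0953). This mean combines higher signals with gefitinib early and lower ones late, as given with the time courses. When the variance was inflated for the correlation between successive time points, the calls of IL18 and IL1RN were lost (adjusted p = 0.308 and 0.0542).

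IL6, CSF1 and IL1B, which fell in PC9, did not pass in PC9M2. IL6 ranged from 4.30 to 5.89 untreated and from 4.17 to 6.02 with gefitinib, almost the same span, with a difference of -0.05 (SE 0.10, adjusted p = 0.684). CSF1 differed by -0.02 (SE 0.12, adjusted p = 0.868). IL1B ranged from 5.59 to 9.31 untreated and from 6.35 to 9.29 with gefitinib, with a difference of 0.00 (SE 0.15, adjusted p = 0.985). A mean near 0 hid a change over time for IL1B and for IL6, which is described with the time courses.

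With EGF present, gefitinib changed 7 of the 8 cytokines in PC9M2, 5 lower and 2 higher, where 74.5% of all genes were called. CSF2 differed by -4.30 (SE 0.37, adjusted p = 7.90e-11) with all time points and by -4.66 without the 0.5 h arrays whose labels and signals disagreed. LIF differed by -1.54 (-1.68 without 0.5 h), IL11 by -1.01 (-1.08 without 0.5 h), IL18 by -0.78 and IL1B by -0.32, and IL1RN by 1.11. CSF1 was 0.30 higher (SE 0.12, adjusted p = 0.0222), opposite in sign to its difference in PC9, and IL6 again did not pass (-0.07, SE 0.10, adjusted p = 0.563). The calls of CSF1, IL1B and IL18 were lost with the variance inflated for correlated time points (adjusted p = 0.357, 0.221 and 0.160).

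**Figure D3:**
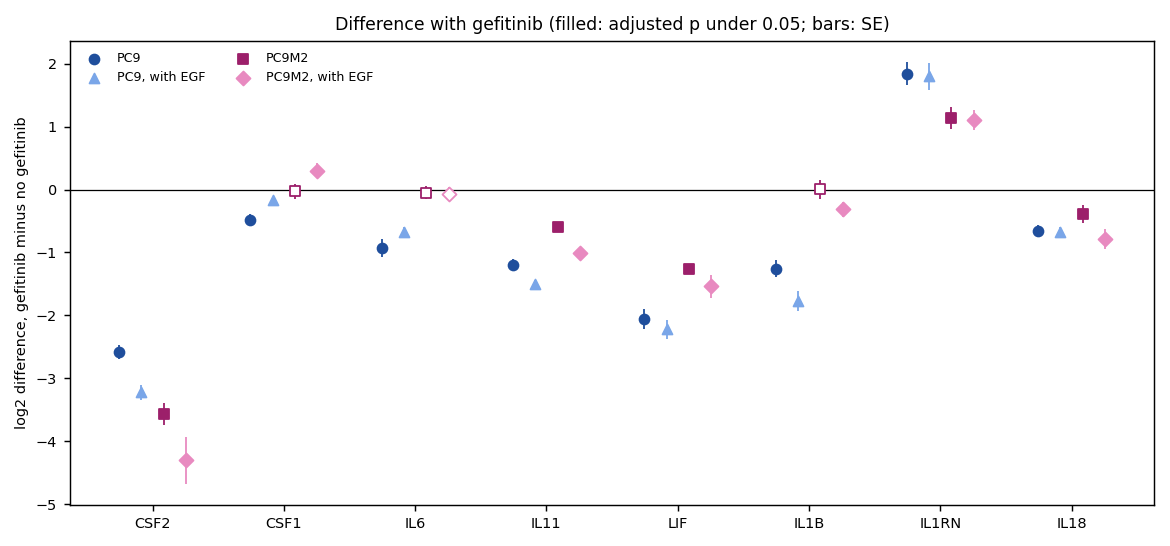
Mean log2 difference between arrays with and without gefitinib at matched time points for each tested cytokine, with 26 time points per point (25 for CSF1 in PC9 with EGF), bars giving the SE and filled symbols an adjusted p under 0.05. CSF2 and LIF lie below 0 and IL1RN above 0 in both lines, while IL6 lies below 0 in PC9 and near 0 in PC9M2.

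The gefitinib difference was not constant over 24 h. In PC9 its change over time was called for all 8 cytokines, where 52.3% of all genes were called, and in PC9M2 for 7 cytokines, all but IL11, where 45.5% were called. At 0 h the CSF2 difference was already -2.04 in PC9 and -3.52 in PC9M2, on arrays harvested after gefitinib was added. The IL1RN difference grew late. In PC9M2 its signal with gefitinib averaged 6.25 from 0 to 4 h and 6.42 from 20 to 24 h, while the untreated signal fell from 6.48 to 4.36. In PC9 the signal went from 7.52 to 8.41 with gefitinib and from 7.19 to 5.90 without treatment. The difference in PC9 averaged 0.33 from 0 to 4 h, 1.80 from 5 to 12 h and 2.63 from 13 to 24 h. In PC9M2 it averaged -0.23, 1.17 and 1.80 in the same windows.

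IL6 in PC9 also moved late, with mean differences of -0.19, -0.51 and -1.59 in these windows. IL11 in PC9 went from -0.57 to -1.15 and -1.54, and IL18 from -0.07 to -0.61 and -0.996. In PC9M2 signals were averaged from 0 to 4 h and from 20 to 24 h. IL6 went from 5.36 to 5.15 untreated and from 5.45 to 4.43 with gefitinib. With EGF it went from 5.55 to 5.22, and with both agents from 5.29 to 4.52. IL18 went from 9.89 to 10.67 untreated and from 10.23 to 9.54 with gefitinib. With EGF it went from 9.83 to 11.12, and with both agents from 10.06 to 9.31. IL1B parted between the lines late in the course. Its difference averaged -0.77, -0.76 and -1.83 in the 3 windows in PC9 but -0.80, -0.50 and 0.74 in PC9M2, where gefitinib arrays were the lower ones early and the higher ones late. In PC9M2 the untreated IL1B signal sank from 9.31 at 0 h to 5.84 at 24 h, while with gefitinib it was 9.29 at 0 h and 6.95 at 24 h. Over the last 13 time points alone, IL1B in PC9M2 was 0.70 higher with gefitinib, which was called. On the arrays with EGF the difference over these time points was 0.05 and was not called by limma (adjusted p = 0.510).

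**Figure D4:**
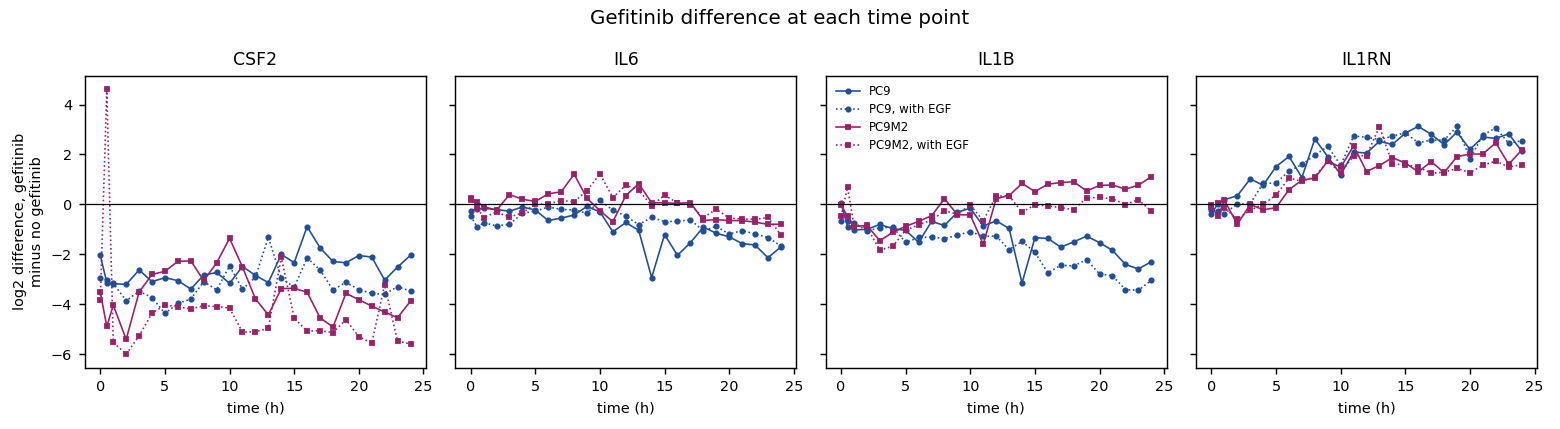
Log2 difference between arrays with and without gefitinib at each time point in hours for CSF2, IL6, IL1B and IL1RN, in PC9 (circles) and PC9M2 (squares), without EGF (solid) and with EGF (dotted). IL1RN rises from near 0 to above 1 in both lines, IL1B in PC9M2 without EGF goes from a mean of -0.80 from 0 to 4 h to 0.74 from 13 to 24 h, and the single high CSF2 point is the PC9M2 pair of 0.5 h.

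Without any treatment the cytokines moved as well after starvation. A change over time was called for 5 of 8 in untreated PC9, where 66.3% of all genes were called, and for 7 of 8 in untreated PC9M2, where 67.2% were called. In PC9 the CSF2 signal was highest at 1 h (6.92) and lowest at 17 h (3.81), and the fitted course spanned 2.66 log2 units (adjusted p = 1.59e-08). PC9M2 kept a higher CSF2 course, which dipped to 5.75 at 12 h and stood at 7.49 at 24 h. IL11 went the other way in PC9, from 9.09 at 0 h to 10.78 at 24 h (fitted range 1.79, adjusted p = 5.94e-09), and LIF ended at 7.05 after a low of 5.09 at 7 h. IL1B fell to 4.79 at 9 h in PC9 and returned to 6.25 at 24 h, while in PC9M2 its fitted course spanned 3.57 (adjusted p = 4.08e-11) without such a return. IL1RN declined in both lines, from 6.99 to 6.18 in PC9 and from 6.81 to 4.31 in PC9M2 between 0 and 24 h. IL6 passed in neither line (adjusted p = 0.115 and 0.221), though in PC9 it did without the 11, 14 and 16 h time points (adjusted p = 0.00761) and in PC9M2 with 75th-percentile scaling (adjusted p = 0.0455), and CSF1 in PC9M2 passed with its highest signal, 7.73, on the single 24 h array. IL11 in PC9M2 passed narrowly (adjusted p = 0.0412) and did not without the 0.5 h time point (adjusted p = 0.0840).

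EGF on its own had small effects. In PC9, 4 cytokines were higher and 1 lower with EGF, where 25.6% of all genes were called. CSF2 ranged from 4.05 to 7.62 with EGF against 3.81 to 6.92 without, ranges that overlapped widely, yet it was higher at all 26 matched time points, by 0.71 on average (SE 0.07, adjusted p = 1.51e-08). IL1B was likewise higher at all 26 time points, by 0.66 (SE 0.06, adjusted p = 8.11e-09). IL11 was 0.27 higher, IL18 0.14 higher and CSF1 differed by -0.32, and none of these 3 passed both over the first 13 and over the last 13 time points. LIF did not pass with the main probe (0.23, adjusted p = 0.0689) and did with the bright one (0.20, adjusted p = 0.000259). Part of the CSF2 difference was present when EGF was added, since the EGF array of 0 h was already 0.54 higher than the untreated one, and the IL1B difference at 0 h was 0.34.

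In PC9M2, EGF raised CSF2 and IL11, where 9.13% of all genes were called. CSF2 was 0.57 higher (SE 0.18, adjusted p = 0.0392) and, without the 0.5 h time point, 0.75 higher (adjusted p = 4.99e-08). The call was lost without the 11, 14 and 16 h time points (adjusted p = 0.0819). IL11 was 0.42 higher at 24 of 26 time points (SE 0.07, adjusted p = 0.000175). IL1B, which rose in PC9, differed by 0.03 in PC9M2 (SE 0.09, adjusted p = 0.873), and whether the EGF differences of the lines differ was not tested.

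Few differences with EGF were called when gefitinib was present, and whether the EGF difference itself changed with gefitinib was not tested. No cytokine was called for EGF in PC9 by limma with gefitinib, where 0.0452% of all genes were called, and 2 had an unadjusted p under 0.05. In PC9M2 only IL1B was called, with a difference of -0.29 (SE 0.06, adjusted p = 0.00592), where 3.21% of all genes were called. At the early time points from 0.5 to 4 h no cytokine was called in either line by limma, where 0.0151% of all genes were called in PC9 and 0% in PC9M2. In PC9, 4 cytokines had an unadjusted p under 0.05 in this window, and CSF2 was higher at all 5 early time points, by 0.83 (SE 0.09, adjusted p = 0.105). In PC9M2, 1 cytokine had such a p, and the CSF2 mean difference of 0.00 (SE 0.75) combines 4 positive values with the pair of 0.5 h. Without that pair it was 0.96 (adjusted p = 0.330).

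Untreated PC9M2 and PC9 differed in all 8 tested cytokines, 2 higher and 6 lower in PC9M2, where 68.1% of all genes were called. CSF2 was 3.31-fold and IL1B 1.99-fold higher in PC9M2, and IL6, IL18, IL1RN, IL11, CSF1 and LIF were lower. CSF2 was higher in PC9M2 at all 26 time points, by 1.73 on average (SE 0.15, adjusted p = 2.20e-11). The gap widened from 1.09 from 0 to 4 h to 2.45 from 13 to 24 h. Since CSF2 was detected on only 14 of the 26 untreated PC9 arrays, the size of the gap and its widening reach into the background. IL1B was 0.99 higher (SE 0.20, adjusted p = 6.13e-05), by 1.75 in the first 4 h and by 0.02 from 13 h on, and the call was lost over the last 13 time points alone (adjusted p = 0.536). IL6 was lower at all 26 time points, with a 2.15-fold difference (log2 SE 0.07, adjusted p = 1.40e-13). IL18 differed by -1.09, IL1RN by -0.97, IL11 by -0.79 and CSF1 by -0.57. LIF differed by -0.47 with the main probe and by -1.15 with the bright one, and the call of the main probe was lost at time points 3 h apart (adjusted p = 0.102), with inflated variance (adjusted p = 0.254) and over the first 13 time points (-0.010, adjusted p = 0.960).

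With EGF, 7 cytokines were called, 1 higher and 6 lower in PC9M2, where 69.8% of all genes were called. CSF2 was 1.58 higher (SE 0.21, adjusted p = 9.77e-08), or 1.77 higher without the 0.5 h time point, and IL6 differed by -1.03 (SE 0.07, adjusted p = 3.79e-13), while IL1B, 0.37 higher, did not pass (adjusted p = 0.105).

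Under gefitinib 5 of the 8 tested cytokines were called, 3 higher and 2 lower in PC9M2, where 64.9% of all genes were called, and with 75th-percentile scaling the split was 2 higher and 3 lower. IL1B ranged from 6.35 to 9.29 in PC9M2 and from 2.57 to 6.73 in PC9, and was higher in PC9M2 at all 26 time points, by 2.25 (SE 0.13, adjusted p = 5.83e-15). IL1RN ranged from 5.82 to 6.95 in PC9M2 and from 6.63 to 8.92 in PC9, a difference of -1.67 (SE 0.12, adjusted p = 5.74e-13). IL18 differed by -0.81. CSF2 was 0.74 higher (SE 0.17, adjusted p = 0.000413), but both lines were near background there and the call was lost with signals set to at least 16 (0.04, adjusted p = 0.497). The probes of LIF disagreed, the main one giving 0.33 and the bright one -0.41, so no direction is given.

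With both agents, 4 cytokines were called, where 67.7% of all genes were called. IL1B was 1.82 higher in PC9M2 (SE 0.11, adjusted p = 1.09e-14), while IL1RN differed by -1.67, IL18 by -1.05 and IL6 by -0.42.

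**Figure D5:**
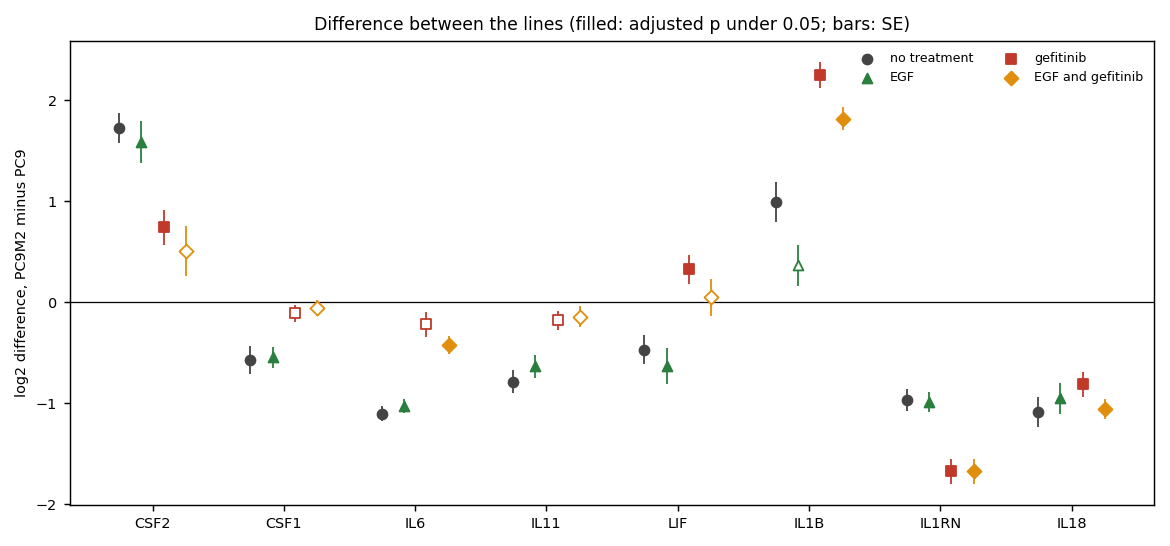
Mean log2 difference between PC9M2 and PC9 at matched time points for each tested cytokine under each of the 4 treatments, with bars giving the SE and filled symbols an adjusted p under 0.05. CSF2 is highest above 0 without gefitinib, IL1B with gefitinib, and IL6, IL1RN and IL18 lie below 0 in every treatment.

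Whether gefitinib acted differently in the lines was tested on the difference of the differences. It was called for 7 of the 8 cytokines without EGF, 5 positive and 2 negative, where 34.0% of all genes were called. A positive value means a smaller fall, or a larger rise, in PC9M2. IL1B gave the largest value, 1.26 (SE 0.26, adjusted p = 0.000353), followed by IL6 with 0.89 (SE 0.14, adjusted p = 1.14e-05), LIF with 0.80, IL11 with 0.61 and CSF1 with 0.46. CSF2 gave -0.98 (SE 0.22, adjusted p = 0.00111), with a higher untreated level in PC9M2 and gefitinib levels near background in both lines. IL1RN gave -0.71 (SE 0.12, adjusted p = 4.35e-05). IL18 did not pass (0.27, SE 0.12, adjusted p = 0.0829).

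On the arrays with EGF, none of which entered the test above, the same 7 cytokines were called in the same directions, where 48.7% of all genes were called. IL1B gave 1.45, LIF 0.68, IL6 0.61, IL11 0.49, CSF1 0.48, IL1RN -0.69 and CSF2 -1.08. Without the 0.5 h time point LIF gave 0.58 and CSF2 -1.43. IL6 was the steadiest, positive at all 26 time points with EGF and at 25 of 26 without. With the variance inflated for correlated time points the calls of IL1B, CSF2 and CSF1 without EGF were lost (adjusted p = 0.164, 0.198 and 0.202), as were those of IL1B and CSF1 with EGF (adjusted p = 0.126 and 0.310). Over the first 13 time points IL6 alone was called without EGF.

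The counts of the following lists are to be read against the 72.3% of all genes called with gefitinib in PC9 and the 66.7% in PC9M2. Of 15 listed receptors and soluble inhibitors of these cytokines 12 were tested, of which 3 rose and 6 fell in PC9 and 3 rose and 5 fell in PC9M2, with medians of -0.19 and -0.16. These shares are close to those over all genes. CSF1R, the receptor of M-CSF, was 3.72 higher in PC9 and 3.73 higher in PC9M2 and was detected on all arrays. IL1R2, a decoy receptor that binds IL-1 without signalling, differed by -3.18 in PC9 and by -1.42 in PC9M2. The IL-18 receptor chains IL18R1 and IL18RAP differed by -2.81 and -2.38 in PC9 and by -1.15 and -0.78 in PC9M2. With gefitinib in PC9 they were detected on only 8 and 13 of 26 arrays. CSF1R is also on the leukocyte marker list, whose summed log2 signal had a median of 10.34 untreated and 13.24 with gefitinib in PC9 and of 9.23 and 10.80 in PC9M2. The part of these markers in the cytokine results was not tested.

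Other ligands of the families gave no common direction. Of 17 listed, 12 were tested, of which 5 rose and 2 fell in PC9 and 2 rose and 2 fell in PC9M2, where 72.3% and 66.7% of all genes were called. OSM, an IL-6 family ligand, differed by -2.23 and CLCF1, another, by -1.24 in PC9, while the anti-inflammatory IL37 was 1.54 higher and the antagonist IL36RN, detected on only 4 untreated arrays, 0.79 higher. Of 12 genes for the maturation and release of IL-1 family proteins 9 were tested, with 3 up and 3 down in PC9 and 2 up and 2 down in PC9M2, against the same shares over all genes. CASP1, the protease that cleaves IL-1β and IL-18, differed by -1.08 in PC9 and was detected on only 4 of 26 arrays of either PC9M2 course without EGF. GSDMD, whose product forms the pores through which IL-1β leaves the cell, was 0.58 higher in PC9 and 0.50 higher in PC9M2.

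Genes that ERK signalling is known to induce were followed beside the cytokines, while ERK activity itself was not measured on these arrays. All 10 fell with gefitinib in PC9, with a median of -3.77, and 8 of 10 fell in PC9M2, with a median of -1.07, where 72.3% and 66.7% of all genes were called in either direction and the medians over all genes were -0.02 and -0.01. DUSP6, a phosphatase that acts on ERK, differed by -6.80 in PC9 and by -2.17 in PC9M2. FOSL1, an AP-1 subunit, differed by -4.35 and -2.77, and was detected on only 10 of 26 PC9 arrays with gefitinib. Of 9 tested AP-1 and NF-κB subunits, 2 rose and 6 fell in PC9 and 3 rose and 4 fell in PC9M2, against the same shares over all genes. JUN differed by -1.61 in PC9 and by -1.64 in PC9M2, and FOS by -2.82 in PC9.

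The genes whose signals ran most like each cytokine were ranked by the smaller of 2 Pearson correlations, 1 over all arrays of each line. These arrays share treatments, slides and time points, so the values are descriptions. CSF2 ran most like FOSL1 (0.92), HS3ST1 (0.90) and MAK16 (0.90). With gefitinib in PC9, CSF2 was detected on only 5 and FOSL1 on only 10 of 26 arrays. IL1RN ran most like SNAPIN (0.90), IL18 like TIPRL (0.87) and IL11 like CHRNA10 (0.87). The best values were lower for IL1B, with MGLL (0.78), IL6, with ATE1 (0.70), and CSF1, with RCE1 (0.61). Among the cytokines themselves, CSF2 and IL1B correlated at 0.83 in PC9 and at 0.21 in PC9M2, while CSF2 and LIF correlated at 0.72 and 0.79 and IL11 and IL1RN at -0.75 and -0.65.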

How the data were processed

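Total RNA was hybridised to 1-colour Agilent arrays, 1 for each of 26 time points in 8 courses. Per the file headers, the intensity values deposited by the authors are background-corrected signals from Feature Extraction 10.5.1.1. The deposited series table holds intensity values of the same arrays that the authors had quantile normalized, and was used as an alternative. No column of per-sample values was left unmatched to a sample.

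Signals of 41000 non-control probes were quantile normalized over all arrays, set to at least 1 and taken to log2. Outlier spots were removed and spots of a probe averaged, which left 0.0793% of the values of the tested genes missing. Each gene was given by its probe of largest variance. Of 41000 probes 24794 matched a RefSeq symbol. Genes not well above background on at least 13 of 26 arrays of any course were left out (3698 of 16961). Differences at matched time points were tested with limma 3.58.1 in R 4.3.3, changes over time with natural splines of 4 degrees of freedom, at a Benjamini-Hochberg adjusted p of 0.05. The procedure was tested on simulated data with independent time points, so that test does not cover the dependence between time points of a course.

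Arrays of a line and time point shared a slide, which pairs them. Deviations of paired arrays from their course means correlated with medians of 0.29 to 0.76. All 10 cytokines are named, other genes only as up to 4 listed genes with the largest called gefitinib differences and the genes most like each cytokine, up to 3, which are not reported here for LIF. Members and lists were chosen with earlier results of these data known. Alternatives changed the scaling, background correction, probe choice, filter, floor, pairing, time points and variance. Normexp correction used median signals, and leaving out the 0.5 h or the 11, 14 and 16 h time points was chosen after seeing the data. Because array number and background limit precision, no counting interval applies.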

Additional observations from a re-analysis of the deposited data

Results flagged for a closer look

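The gefitinib difference itself differed between PC9M2 and PC9 by limma for 7 cytokines, with each value given as the PC9M2 difference minus the PC9 difference over 26 time points. Without EGF the value was -0.98 for CSF2 (adjusted p = 0.00111), 0.46 for CSF1 (adjusted p = 0.0270) and 0.89 for IL6 (adjusted p = 1.14e-05). It was 0.61 for IL11 (adjusted p = 3.98e-05), 0.80 for LIF (adjusted p = 4.97e-05), 1.26 for IL1B (adjusted p = 0.000353) and -0.71 for IL1RN (adjusted p = 4.35e-05). With EGF it was -1.08 for CSF2 (adjusted p = 0.0211), 0.48 for CSF1 (adjusted p = 0.00314, 25 time points) and 0.61 for IL6 (adjusted p = 4.39e-08). It was 0.49 for IL11 (adjusted p = 1.57e-06), 0.68 for LIF (adjusted p = 0.00510), 1.45 for IL1B (adjusted p = 1.13e-05) and -0.69 for IL1RN (adjusted p = 6.58e-06). Without the 0.5 h time point the CSF2 values were -0.95 and -1.43. The lines were scanned in separate periods, and the part of the scan period in these values was not tested.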

How the results depend on the processing

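Of 322 alternative counts of called cytokines 298 lay within 1.5 times the reported count, and of 1645 alternatives to a called difference 1519 kept the call and direction, 120 lost the call and 6 changed sign; the cause was not tested. Called with EGF in PC9 (5 as reported) were 2 cytokines at time points 3 h apart, 3 over the first 13 and 3 over the last 13 time points. With the variance inflated for autocorrelation, gefitinib in PC9M2 gave 3 without and 4 with EGF, EGF in PC9M2 1, the lines under gefitinib 3 and the difference of gefitinib effects 4. EGF in PC9M2 (2 as reported) gave 1 with 75th-percentile scaling, 1 with no filter, 1 with scan day as a block, 1 by the methods' t-test, 4 with outlying points replaced by a spline, and 0 at time points 3 h apart and over the first 13. IL1B with EGF under gefitinib in PC9M2 was not called over the first 13 (0). The lines under gefitinib gave 3 with a floor of 16. The difference of gefitinib effects gave 3 at time points 3 h apart and 1 over the first 13, and with EGF 3 over the first 13 and 3 with the scan day block. Without the replicate block, that is without pairing by slide, EGF gave 1 cytokine in PC9, 1 in PC9M2 and 0 in PC9M2 under gefitinib.

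Signs changed as follows. For gefitinib in PC9M2, CSF1 was 0.12 and IL6 0.0765 with 75th-percentile scaling, CSF1 0.000703 with spline replacement, IL1B -0.0693 with normexp and -0.0010 with the scan day block, and over the first 13 time points IL6 was 0.16, IL1B -0.69 and IL18 0.0936. With EGF, IL6 was 0.13 with that scaling, CSF1 -0.0693 and IL6 0.0617 over the first 13, and IL1B 0.0483 over the last 13 time points. Early EGF in PC9M2 gave CSF2 -0.0675 with 75th-percentile scaling. Between lines under gefitinib, CSF1 was 0.0651 at time points 3 h apart, IL6 0.0780 over the last 13, and LIF -0.41 with the brighter probe and -0.0437 with the mean of probes, and with EGF LIF was 0.0144 over the first 13. The difference of gefitinib effects with EGF gave IL18 0.0175 at time points 3 h apart and 0.26 over the first 13.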
